A study of Mus musculus with 16 samples.

Results

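The 10 genes below build or govern the contractile state of smooth muscle. They lie outside the 7 contractile genes that the study itself displayed, and were followed in mouse aorta. They were taken by gene symbol from the 54532 genes of the deposited tables, and all 10 were found once: the transcription regulators Myocd and Srf, the kinases Mylk and Prkg1, the thin filament proteins Cnn1 and Tpm2, the filament anchors Des, Synpo2 and Ldb3, and the calcium pump inhibitor Pln. In a resting artery, smooth muscle cells of the media hold the vessel at tone with actin and myosin filaments tied to dense bodies and intermediate filaments. Serum response factor binds short promoter elements named CArG boxes, and myocardin, its partner, turns that binding into transcription of smooth muscle genes. In chronic kidney disease, cells of the calcified media are known to lose this contractile program while taking on bone-like features.

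All 16 mice were male C57BL/6J, 12 weeks old at surgery, and 1 library was made from the aorta of each, with 4 mice in each of 4 groups. The Sham mice had the operation without ligation or removal of a kidney and then ate 2% phosphorus with 2.5% protein. The other 3 groups had 5/6 nephrectomy (5/6 Nx), which removes most kidney tissue, followed by 1 of 3 diets: 2% phosphorus with 2.5% protein (5/6 Nx-HPi-Lp), 2% phosphorus and 18% protein (5/6 Nx-HPi-Hp), or 0.3% phosphorus and 2.5% protein (5/6 Nx-LPi-Lp). The diets lasted 30 days by the labels and 4 weeks by the study's methods, after 2 weeks of recovery, and the labels give no Sham mice on the other diets. Levels are given as CPM, counts relative to each library's total as adjusted by TMM over all 16. Groups were compared by edgeR's quasi-likelihood test over all genes with enough counts, and a gene was called where its Benjamini-Hochberg adjusted p was 0.05 or less and its log2 fold change 1 or more in size.

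Library totals ran from 13659525 to 57276915 counts, and the share of counts on mitochondrial genes was 4.18% to 6.34% in the Sham mice and 9.50% to 29.0% in the others. The 6 smooth muscle markers were present in every library, with a summed level of 20184 to 24046 CPM in the Sham mice, 2089 to 4794 CPM in 5/6 Nx-HPi-Lp, 6109 to 21406 CPM in 5/6 Nx-HPi-Hp and 7074 to 16505 CPM in 5/6 Nx-LPi-Lp. All 5 macrophage markers were called higher in 5/6 Nx-HPi-Lp against each other group (sums 103 to 137 CPM in Sham, 285 to 858 in 5/6 Nx-HPi-Lp, 126 to 265 in 5/6 Nx-HPi-Hp and 105 to 163 in 5/6 Nx-LPi-Lp), and 4 of 5 adipocyte markers were higher than in Sham (sums 476 to 1216 CPM in Sham, 2817 to 5091 in 5/6 Nx-HPi-Lp, 1041 to 6315 in 5/6 Nx-HPi-Hp and 2494 to 6911 in 5/6 Nx-LPi-Lp). Of the other lists, 2 of 5 fibroblast, 3 of 5 endothelial and 4 of 4 Schwann cell markers were called higher than in Sham. Of all genes, 15.0% were called higher in 5/6 Nx-HPi-Lp than in Sham, 5.01% than in 5/6 Nx-HPi-Hp and 7.90% than in 5/6 Nx-LPi-Lp. Endothelial sums overlapped, at 504 to 712 CPM in Sham and 565 to 816 CPM in 5/6 Nx-HPi-Lp. Against Sham, 5/6 Nx-HPi-Hp had 2 and 4 of these endothelial and Schwann cell markers called higher, where 9.41% of all genes were. In 5/6 Nx-LPi-Lp these were 2 and 3, where 8.79% of all genes were. Against 5/6 Nx-HPi-Hp and against 5/6 Nx-LPi-Lp, 4 of 5 fibroblast markers were called higher in 5/6 Nx-HPi-Lp. Their sums were 2682 to 11648 CPM in 5/6 Nx-HPi-Lp, 920.3 to 2684 in 5/6 Nx-HPi-Hp and 1043 to 1348 in 5/6 Nx-LPi-Lp. Several libraries stood apart. The 8 heart muscle genes (Myh6, Tnnt2, Actc1 and others, none at 0) summed to 8689 CPM in 5/6 Nx-LPi-Lp mouse 2 against 40.3 to 120.4 CPM in the other mice of that group, and to 1114 and 572 CPM in 5/6 Nx-HPi-Hp mice 1 and 2 against 30.2 to 101 CPM in the Sham mice. The 5 sympathetic neuron genes summed to 710 and 579 CPM in 5/6 Nx-HPi-Lp mice 1 and 4, called neuron-rich below, against 10.7 to 12.6 CPM in the Sham mice. The sums were 22.5 and 145 CPM in mice 2 and 3 of 5/6 Nx-HPi-Lp, and reached 126 CPM in 5/6 Nx-HPi-Hp and 80.0 CPM in 5/6 Nx-LPi-Lp. The 10 skeletal muscle genes, 1 of them at 0 in each group, summed to 384 and 253 CPM in 5/6 Nx-LPi-Lp mice 2 and 4, against at most 86.4 CPM elsewhere.

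Serum response factor and myocardin act at the CArG box, so the members' promoters were searched for it by its consensus, which reads alike on both strands. For 9 members a promoter was found in RefSeq's table for GRCm38.p6, the build also called mm10, and for Myocd none was matched. A box lay in the 250 bases before the transcription start of 2 of those 9, against 1.47% of all 32851 promoters in the table. Srf, the gene of the factor itself, held a pair of boxes, at -82 to -73 and -62 to -53 from its start, and 0.0183% of all promoters held 2 or more. Ldb3 held 1 box, at -35 to -26 from the start printed here and at -109 to -100 from its other listed start. The 130 bases before each start are shown 5′ to 3′ on the gene's own strand with the boxes in capitals, Srf from chr17:46556163-46556292 and Ldb3 from chr14:34588682-34588811, both on the minus strand.
Srf: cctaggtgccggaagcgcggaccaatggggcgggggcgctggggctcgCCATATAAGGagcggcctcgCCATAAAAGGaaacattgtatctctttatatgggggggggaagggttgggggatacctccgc
Ldb3: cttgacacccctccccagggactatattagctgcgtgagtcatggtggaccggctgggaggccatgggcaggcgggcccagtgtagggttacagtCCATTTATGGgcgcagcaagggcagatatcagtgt
A match describes the letters only, and the 7 members without one may carry boxes outside this window.

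Against the Sham mice, 9 of the 10 regulators were called lower in 5/6 Nx-HPi-Lp aortas, and only Pln was not. Over all 16513 genes tested, 7.18% were called lower in that comparison and 15.0% higher. The members' log2 fold changes had a median of -2.08, while the median over all genes was 0.00. For the 9 called genes every 5/6 Nx-HPi-Lp mouse lay below every Sham mouse, which held in one direction or the other for 43.0% of all genes. The fall was deepest for Synpo2, at 10.98% of the Sham mean, and Cnn1, at 13.5%, and shallowest among the called genes for Prkg1 (37.9%) and Srf (36.2%). Mean CPM was highest in the Sham mice for 8 members and lowest in 5/6 Nx-HPi-Lp aortas for 9, the exception being Prkg1. In bulk aorta, fewer smooth muscle cells and less RNA of these genes per cell cannot be told apart. The smooth muscle marker sums given above moved the same way and the macrophage and adipocyte sums the opposite way, and their part in the result was not tested.

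**Figure D1:**
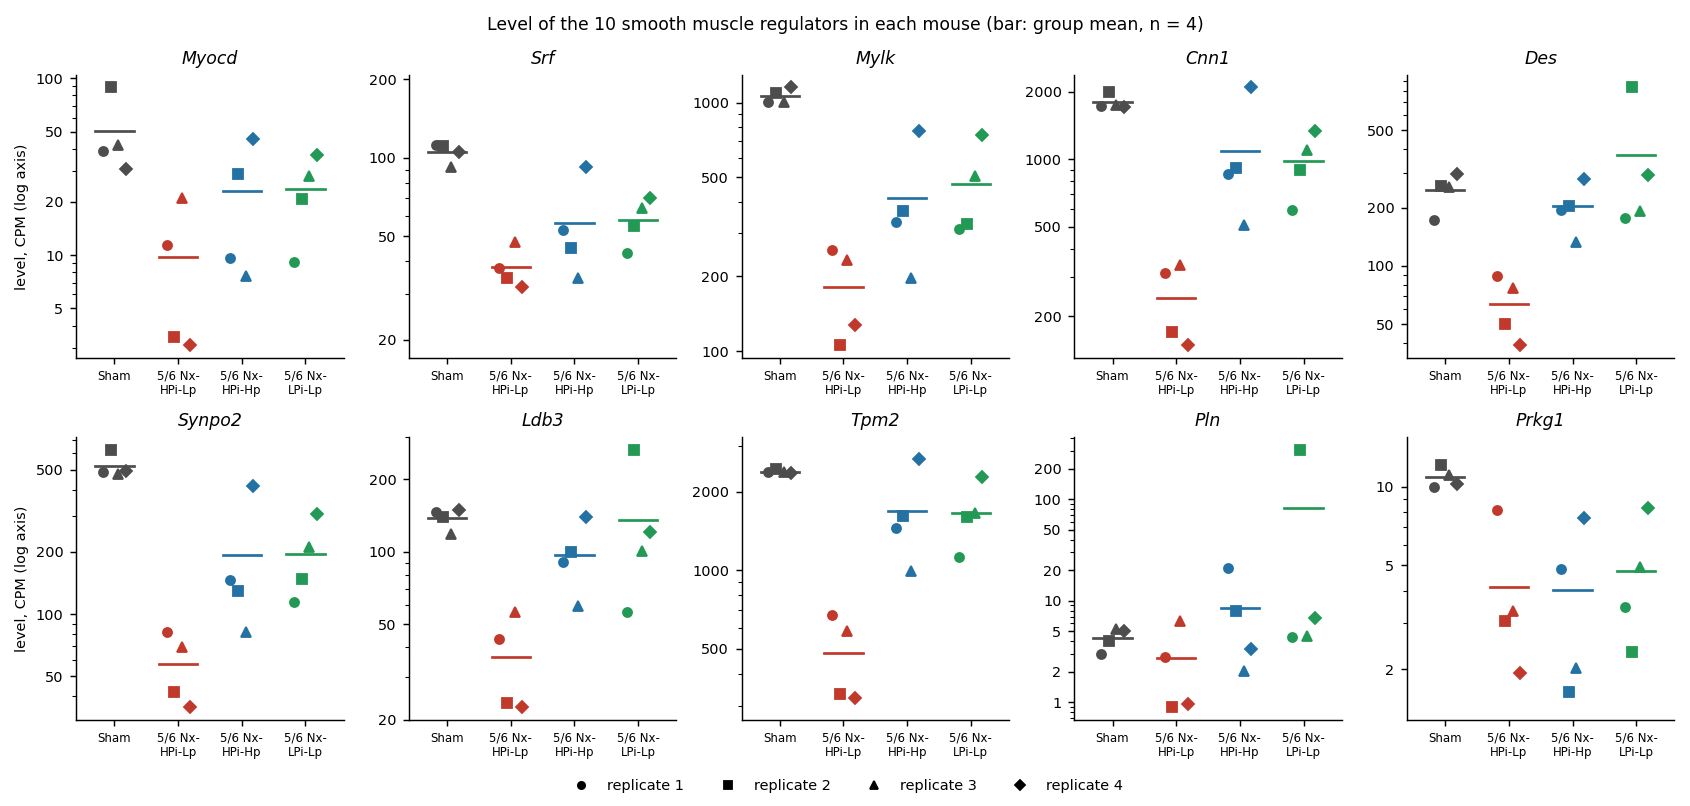
Level in CPM (log axis) of the 10 regulators in each of the 16 mice, by group, with 1 symbol per mouse and a bar at the group mean (n = 4). In 9 panels every 5/6 Nx-HPi-Lp mouse lies below every Sham mouse. The exception is Pln, where 5/6 Nx-LPi-Lp mouse 2 stands at 309.7 CPM.

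Per length, the members span a wide range of abundance. In the deposited FPKM, which divide by gene length, the Sham means were 786 ± 10.3 for Tpm2 and 629 ± 44.1 for Cnn1 (SD, n = 4), followed by 90.8 ± 6.53 for Mylk, 62.8 ± 13.7 for Des, 38.02 ± 5.09 for Synpo2, 34.7 ± 3.05 for Srf and 21.7 ± 2.26 for Ldb3. Myocd followed at 7.46 ± 3.903, and Pln and Prkg1 were lowest at 1.501 ± 0.3698 and 1.34 ± 0.116. In 5/6 Nx-HPi-Lp aortas the top places stayed with Tpm2 (167 ± 62.5 FPKM) and Cnn1 (89.7 ± 35.5 FPKM), while Synpo2 (4.42 ± 1.72 FPKM) lay below Srf (13.3 ± 2.33 FPKM), the reverse of their Sham order. Prkg1 rested on 20 to 278 counts per library and Pln on 15 to 4935, whereas Tpm2 never fell below 5005.

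Myocd (ENSMUSG00000020542, chromosome 11, 65176561 to 65269989, minus strand, mm10) encodes myocardin, the coactivator that drives smooth muscle genes through serum response factor. In mice 1 to 4, the level of Myocd was 38.8, 88.8, 42.04 and 30.6 CPM in the Sham group and 11.5, 3.46, 20.98 and 3.096 CPM in 5/6 Nx-HPi-Lp aortas. It was 9.63, 28.9, 7.65 and 45.5 CPM in 5/6 Nx-HPi-Hp aortas and 9.21, 20.8, 28.04 and 36.9 CPM in 5/6 Nx-LPi-Lp aortas. Sham mouse 2 was the highest of all 16, 5/6 Nx-HPi-Lp mice 2 and 4 were the lowest, and the groups other than Sham overlapped one another. Myocd fell in 5/6 Nx-HPi-Lp against Sham by a log2 fold change of -2.29 (SE 0.60, adjusted p = 0.0122), a 4.899-fold lower level. Its log2 fold change was -1.22 (SE 0.71, adjusted p = 0.269) against 5/6 Nx-HPi-Hp and -1.27 (SE 0.62, adjusted p = 0.175) against 5/6 Nx-LPi-Lp, neither past the threshold. Without the neuron-rich mice 1 and 4 the change against Sham was -1.98 (adjusted p = 0.0523), no longer called.

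Srf (ENSMUSG00000015605, chromosome 17, 46548329 to 46556175, minus strand) encodes serum response factor, whose own promoter carries the 2 boxes printed above. The Sham mice, in the order 1 to 4, had 112, 111, 91.9 and 105 CPM of Srf, and 5/6 Nx-HPi-Lp aortas had 37.8, 34.5, 47.6 and 31.8 CPM. The corresponding levels were 53.03, 44.9, 34.6 and 92.1 CPM in 5/6 Nx-HPi-Hp aortas and 43.1, 54.5, 64.1 and 69.9 CPM in 5/6 Nx-LPi-Lp aortas. The Sham values lay close together, and each 5/6 Nx-HPi-Lp mouse stood below them, but they overlapped the lower mice of both other groups. The log2 fold change against Sham was -1.41 (SE 0.14, adjusted p = 6.54e-05), the most precise of the 10. It was -0.55 (SE 0.27, adjusted p = 0.197) against 5/6 Nx-HPi-Hp and -0.60 (SE 0.18, adjusted p = 0.0430) against 5/6 Nx-LPi-Lp. The last passed the adjusted p but not the fold, so Srf was called against Sham alone.

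Mylk (ENSMUSG00000022836, chromosome 16, 34745210 to 35002420, plus strand) encodes myosin light chain kinase, which starts contraction by phosphorylating the regulatory light chain of myosin. Mylk was measured at 1011, 1097, 1009.6 and 1152 CPM in Sham mice 1 to 4 and at 256, 106, 232 and 128 CPM in 5/6 Nx-HPi-Lp mice 1 to 4. 5/6 Nx-HPi-Hp mice had 329.6, 368, 196 and 767 CPM, and 5/6 Nx-LPi-Lp mice had 311, 324, 507 and 739 CPM. The Sham mice stood above all nephrectomized mice, and 5/6 Nx-HPi-Hp mouse 3 fell within the 5/6 Nx-HPi-Lp range. Mylk fell against Sham with a log2 fold change of -2.51 (SE 0.28, adjusted p = 0.000126), and against 5/6 Nx-LPi-Lp with -1.38 (SE 0.36, adjusted p = 0.0277). The value against 5/6 Nx-HPi-Hp was -1.19 (SE 0.42, adjusted p = 0.0901), short of the threshold, though DESeq2 gave -1.20 (adjusted p = 0.0200). The call against 5/6 Nx-LPi-Lp was lost without 5/6 Nx-HPi-Lp mouse 2 or 4, without 5/6 Nx-LPi-Lp mouse 3 or 4, and without the neuron-rich libraries, with log2 fold changes of -1.46 to -1.06.

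Cnn1 (ENSMUSG00000001349, chromosome 9, 22099216 to 22109630, plus strand) encodes calponin 1, an actin-binding protein that restrains the myosin motor. In mice 1 to 4, the level of Cnn1 was 1728, 1988, 1751 and 1717 CPM in the Sham group and 311, 171, 337 and 148 CPM in 5/6 Nx-HPi-Lp aortas. It was 863, 911, 509 and 2092 CPM in 5/6 Nx-HPi-Hp aortas and 592, 892, 1105 and 1339 CPM in 5/6 Nx-LPi-Lp aortas. No 5/6 Nx-HPi-Lp mouse reached the lowest mouse of any other group, whereas 5/6 Nx-HPi-Hp mouse 4 exceeded every Sham mouse. Its log2 fold change in 5/6 Nx-HPi-Lp was -2.84 (SE 0.27, adjusted p = 6.16e-05) against Sham, -2.16 (SE 0.45, adjusted p = 0.0153) against 5/6 Nx-HPi-Hp and -2.01 (SE 0.34, adjusted p = 0.00507) against 5/6 Nx-LPi-Lp. Cnn1 was thus called lower in all 3 comparisons of that group, at 13.5% of the Sham mean against 60.9% in 5/6 Nx-HPi-Hp and 54.7% in 5/6 Nx-LPi-Lp. Against 5/6 Nx-HPi-Hp the call was lost without 5/6 Nx-HPi-Lp mouse 4, at -1.99 (adjusted p = 0.0545).

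Tpm2 (ENSMUSG00000028464, chromosome 4, 43514711 to 43523765, minus strand) encodes beta-tropomyosin, which lies along the actin filament. The Sham mice, in the order 1 to 4, had 2378, 2436, 2374 and 2355 CPM of Tpm2, and 5/6 Nx-HPi-Lp aortas had 673, 333, 586 and 323 CPM. The corresponding levels were 1445, 1618, 992 and 2668 CPM in 5/6 Nx-HPi-Hp aortas and 1119, 1601, 1658 and 2272 CPM in 5/6 Nx-LPi-Lp aortas. The Sham values lay close together, 5/6 Nx-HPi-Hp mouse 4 lay above them, and every 5/6 Nx-HPi-Lp mouse lay below every mouse of the other groups. The log2 fold changes were -2.26 (SE 0.25, adjusted p = 0.000121) against Sham, -1.80 (SE 0.36, adjusted p = 0.0144) against 5/6 Nx-HPi-Hp and -1.79 (SE 0.31, adjusted p = 0.00551) against 5/6 Nx-LPi-Lp, all 3 called. Against 5/6 Nx-HPi-Hp the call was lost without 5/6 Nx-HPi-Lp mouse 4, at -1.65 (adjusted p = 0.0527).

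Des (ENSMUSG00000026208, chromosome 1, 75360329 to 75368579, plus strand) encodes desmin, the intermediate filament of muscle cells, heart muscle included. Des was measured at 173, 257, 256 and 298 CPM in Sham mice 1 to 4 and at 88.4, 50.3, 77.3 and 39.02 CPM in 5/6 Nx-HPi-Lp mice 1 to 4. 5/6 Nx-HPi-Hp mice had 193, 205, 132 and 280.2 CPM, and 5/6 Nx-LPi-Lp mice had 177, 832, 192 and 295 CPM. 5/6 Nx-LPi-Lp mouse 2, the library richest in heart muscle genes, was far above the rest, while 5/6 Nx-HPi-Lp aortas formed the lowest group without overlap. Des fell by log2 fold changes of -1.89 (SE 0.27, adjusted p = 0.000466) against Sham, -1.66 (SE 0.30, adjusted p = 0.00991) against 5/6 Nx-HPi-Hp and -2.55 (SE 0.52, adjusted p = 0.0111) against 5/6 Nx-LPi-Lp. Without 5/6 Nx-LPi-Lp mouse 2 the last was -1.81 (adjusted p = 0.00980), still called.

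Synpo2 (ENSMUSG00000050315, chromosome 3, 123076519 to 123236149, minus strand) encodes synaptopodin 2, an actin-binding protein of dense bodies and Z-discs. In mice 1 to 4, the level of Synpo2 was 488, 626, 476 and 495 CPM in the Sham group and 81.8, 42.1, 69.7 and 35.3 CPM in 5/6 Nx-HPi-Lp aortas. It was 147, 129.9, 82.3 and 417 CPM in 5/6 Nx-HPi-Hp aortas and 114, 148, 210.3 and 306 CPM in 5/6 Nx-LPi-Lp aortas. The Sham mice stood above all others, 5/6 Nx-HPi-Lp aortas below all others, and the remaining groups overlapped each other in between. Its log2 fold change of -3.13 (SE 0.27, adjusted p = 4.42e-05) against Sham was the largest of the 10, an 8.77-fold lower level. It was -1.74 (SE 0.48, adjusted p = 0.0406) against 5/6 Nx-HPi-Hp and -1.76 (SE 0.35, adjusted p = 0.0105) against 5/6 Nx-LPi-Lp. The call against 5/6 Nx-HPi-Hp was the least secure of the 5 there, since it was lost when any 1 of 6 libraries was left out: 5/6 Nx-HPi-Lp mice 2, 3 and 4 and 5/6 Nx-HPi-Hp mice 1, 2 and 4, with log2 fold changes of -1.91 to -1.07.

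Ldb3 (ENSMUSG00000021798, chromosome 14, 34526603 to 34588682, minus strand) encodes a PDZ and LIM domain protein of the Z-disc in striated muscle, also present in smooth muscle. The Sham mice, in the order 1 to 4, had 146, 139.7, 118 and 149 CPM of Ldb3, and 5/6 Nx-HPi-Lp aortas had 43.2, 23.5, 56.4 and 22.5 CPM. The corresponding levels were 90.7, 99.3, 59.6 and 139 CPM in 5/6 Nx-HPi-Hp aortas and 56.2, 266, 100.2 and 121 CPM in 5/6 Nx-LPi-Lp aortas. 5/6 Nx-LPi-Lp mouse 2 was again the highest, and 5/6 Nx-LPi-Lp mouse 1 fell just below the top of the 5/6 Nx-HPi-Lp range. The log2 fold changes were -1.87 (SE 0.28, adjusted p = 0.000662) against Sham, -1.41 (SE 0.34, adjusted p = 0.0266) against 5/6 Nx-HPi-Hp and -1.89 (SE 0.47, adjusted p = 0.0235) against 5/6 Nx-LPi-Lp. Without 5/6 Nx-LPi-Lp mouse 2 the last was -1.36 (adjusted p = 0.0414). Leaving out 5/6 Nx-HPi-Lp mouse 2 or 4 ended both of the calls between nephrectomized groups, and 5/6 Nx-HPi-Hp mouse 2 that against its own group.

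Pln (ENSMUSG00000038583, chromosome 10, 53337667 to 53345987, plus strand) encodes phospholamban, the inhibitor of the calcium pump SERCA, abundant in heart and scarce in aorta. Pln was measured at 2.97, 4.02, 5.28 and 5.02 CPM in Sham mice 1 to 4 and at 2.77, 0.890, 6.29 and 0.968 CPM in 5/6 Nx-HPi-Lp mice 1 to 4. 5/6 Nx-HPi-Hp mice had 20.9, 7.92, 2.02 and 3.34 CPM, and 5/6 Nx-LPi-Lp mice had 4.44, 309.7, 4.52 and 6.76 CPM. Outside 5/6 Nx-LPi-Lp mouse 2 and 5/6 Nx-HPi-Hp mice 1 and 2, the heart-rich libraries, Pln lay between 0.890 and 6.76 CPM, and the groups overlapped. The log2 fold change in 5/6 Nx-HPi-Lp was -0.60 (SE 0.58, adjusted p = 0.441) against Sham and -1.63 (SE 0.81, adjusted p = 0.203) against 5/6 Nx-HPi-Hp, and against 5/6 Nx-LPi-Lp, whose mean holds mouse 2, it was -4.85 (SE 1.56, adjusted p = 0.0549), none of them called. Without mouse 2 the last of these was -0.95 (adjusted p = 0.362), and without the heart-rich 5/6 Nx-HPi-Hp mice 1 and 2 the value against that group was 0.01 (adjusted p = 0.994). Without 5/6 Nx-HPi-Lp mouse 3 the value against Sham was -1.44 (adjusted p = 0.0389), then called. That mouse had the highest Pln of its group. Its heart muscle sum was 165 CPM, against 41.2 to 64.8 CPM in the others of its group and 30.2 to 101 CPM in Sham. The part of heart muscle RNA in its Pln level was not tested. In 5/6 Nx-LPi-Lp Pln was called higher than in Sham, by 4.35 (SE 1.42, adjusted p = 0.0413), a value that rested on mouse 2 and was 0.36 (adjusted p = 0.327) without it. Myh6, a myosin of heart muscle, was at 3553 CPM in that mouse and at 5.46 to 32.0 CPM in the other 3, and Pln, Des and Ldb3 were each highest there among all 16 mice. In the annotation GENCODE vM21, 59.6% of the exonic bases of Pln lie under the antisense gene Gm47644 and 5.11% under Cep85l, and since the strand setting of the counting was not given in the sources used here, the counts of Pln are uncertain. Other genes lie over 4.87% and 1.99% of the exonic bases of Mylk and 5.86% of those of Des, and over none of the other 7.

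**Figure D2:**
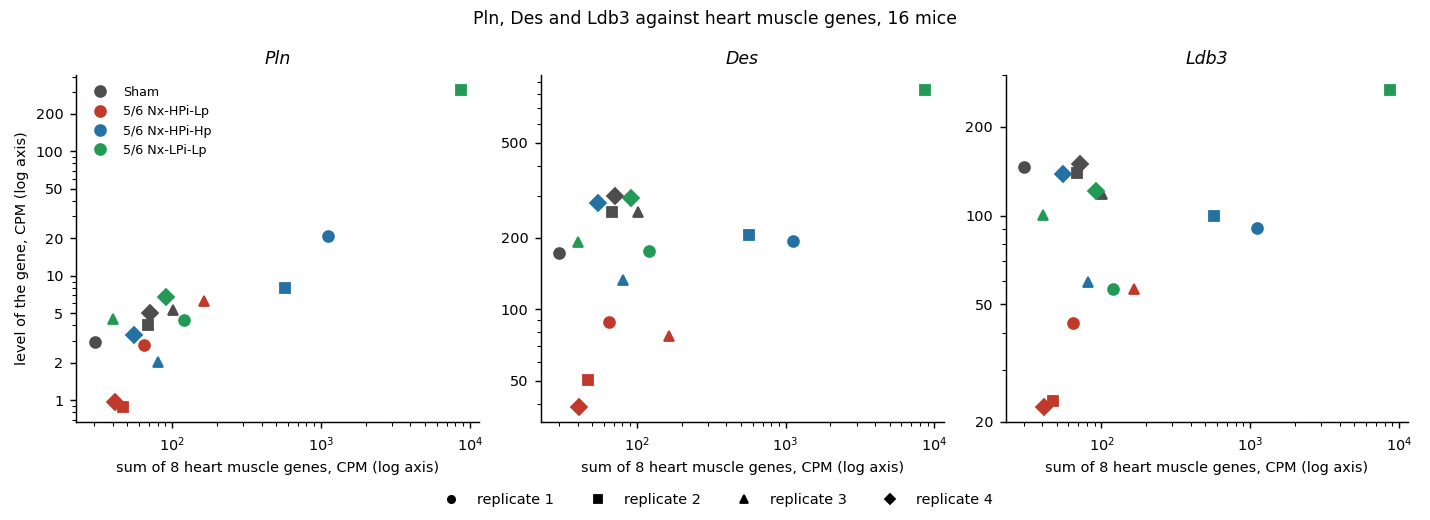
Level of Pln, Des and Ldb3 (vertical axes, CPM, log scale) against the summed level of 8 heart muscle genes (horizontal axes, CPM, log scale) in the 16 mice, coloured by group. 5/6 Nx-LPi-Lp mouse 2 lies at the upper right of each panel, and the 4 lowest mice for Des are those of 5/6 Nx-HPi-Lp, with heart gene sums of 41.2 to 165 CPM.

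Prkg1 (ENSMUSG00000052920, chromosome 19, 30567551 to 31765033, minus strand) encodes cGMP-dependent protein kinase I, which relaxes smooth muscle in response to nitric oxide. In mice 1 to 4, the level of Prkg1 was 10.02, 12.2, 11.1 and 10.2 CPM in the Sham group and 8.13, 3.07, 3.36 and 1.94 CPM in 5/6 Nx-HPi-Lp aortas. It was 4.84, 1.63, 2.02 and 7.60 CPM in 5/6 Nx-HPi-Hp aortas and 3.47, 2.32, 4.95 and 8.33 CPM in 5/6 Nx-LPi-Lp aortas. The 4 Sham mice were the highest of all 16, and the 3 nephrectomized groups overlapped one another. Its log2 fold change was -1.35 (SE 0.39, adjusted p = 0.0182) in 5/6 Nx-HPi-Lp, -1.35 (SE 0.40, adjusted p = 0.0307) in 5/6 Nx-HPi-Hp and -1.10 (SE 0.32, adjusted p = 0.0286) in 5/6 Nx-LPi-Lp, each against the same Sham mice. Between 5/6 Nx-HPi-Lp and the other 2 nephrectomized groups it was 0.04 (SE 0.58, adjusted p = 0.968) and -0.21 (SE 0.52, adjusted p = 0.807), and neither passed the test. Its counts were low, and on the log2(FPKM + 1) scale with limma the changes against Sham were -0.65 to -0.55, under the fold threshold.

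The comparisons with the other diets ask what protein and phosphate content add after nephrectomy. Against 5/6 Nx-HPi-Hp, which differs in protein, 5 of the 10 regulators were called lower (Cnn1, Des, Synpo2, Ldb3 and Tpm2) where 3.11% of all 16198 genes were and 5.01% were called higher, and the median log2 fold change of the members was -1.52. The same 5 genes did not overlap between the groups, against 20.4% of all genes. Against 5/6 Nx-LPi-Lp, which differs in phosphate, these 5 and Mylk were called lower, 6 of 10, where 3.98% of 16253 genes were and 7.90% were called higher, with a median of -1.77, and 5 did not overlap where 24.7% of all genes did not. The thin filament and anchoring proteins were thus called in both comparisons, and Myocd, Srf, Pln and Prkg1 in neither. Whether the called and the uncalled members differed from each other was not tested. The 3 comparisons use the same 5/6 Nx-HPi-Lp mice and are not independent of one another. The count against 5/6 Nx-HPi-Hp was 1 (Des) without 5/6 Nx-HPi-Lp mouse 4, 3 without its mouse 2 or without 5/6 Nx-HPi-Hp mouse 2, 0 without the heart-rich 5/6 Nx-HPi-Hp mice 1 and 2 and 1 (Des) without the neuron-rich mice. Leaving out either pair keeps 2 mice in the group it comes from, and without the heart-rich pair the log2 fold changes of the 5 genes were -2.44 to -1.46, beside -2.16 to -1.41 with all mice. Against 5/6 Nx-LPi-Lp the count ranged from 4 to 7 as each library was left out, and was 3 (Cnn1, Synpo2 and Tpm2) without the neuron-rich mice, where Des, Mylk and Ldb3 had log2 fold changes of -2.54 (adjusted p = 0.0568), -1.46 (adjusted p = 0.0825) and -1.76 (adjusted p = 0.117). The smooth muscle sums given above were also lower in 5/6 Nx-HPi-Lp, with 5 of 6 markers called lower against 5/6 Nx-HPi-Hp and 6 of 6 against 5/6 Nx-LPi-Lp. The macrophage and fibroblast sums moved the opposite way in both comparisons, and the part of tissue composition in the result was not tested. Here too, fewer smooth muscle cells and less RNA of these genes per cell cannot be told apart.

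**Figure D3:**
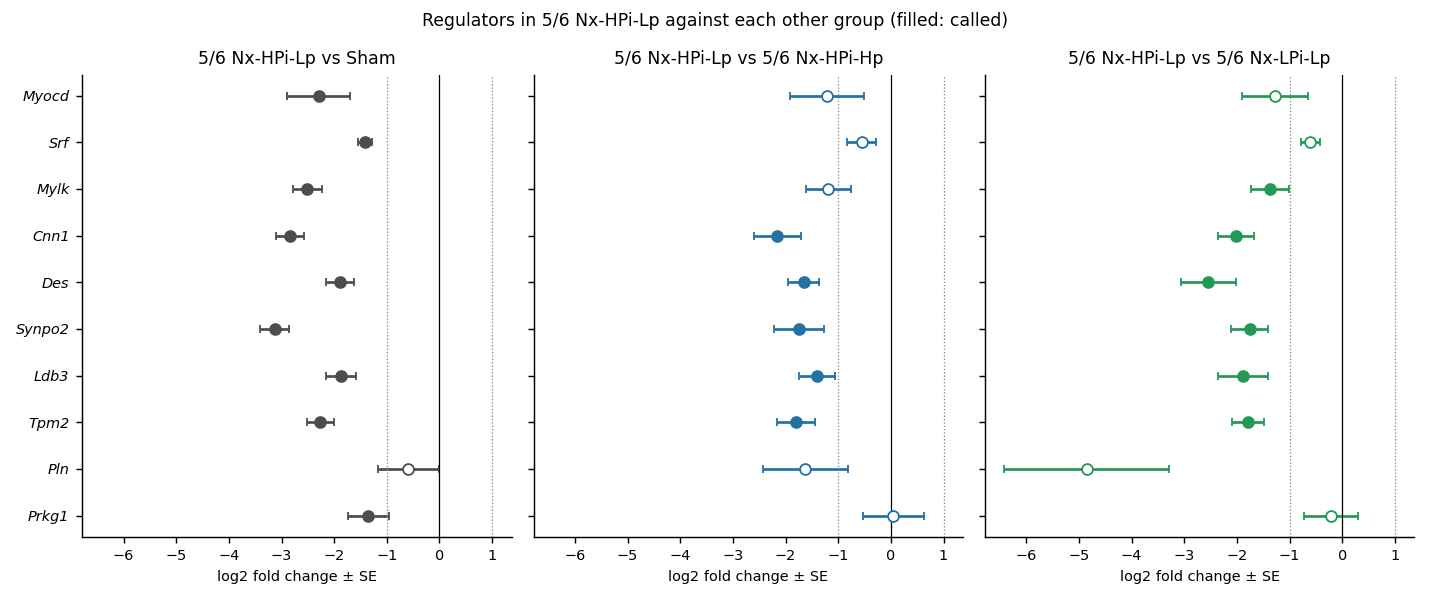
Log2 fold change (horizontal axes, with its standard error as a bar) of the 10 regulators in 5/6 Nx-HPi-Lp against Sham (left), 5/6 Nx-HPi-Hp (middle) and 5/6 Nx-LPi-Lp (right), by edgeR with 4 mice per group, filled where called and dotted lines at a log2 fold change of 1 either way. Filled points number 9, 5 and 6 from left to right, all below 0, and Prkg1 sits at 0.04 and -0.21 in the comparisons between nephrectomized groups.

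The other nephrectomized groups were also set against Sham. In 5/6 Nx-HPi-Hp, Mylk (-1.31, SE 0.34, adjusted p = 0.0195), Synpo2 (-1.37, SE 0.42, adjusted p = 0.0325) and Prkg1 were called lower by edgeR, 3 of 10 where 2.75% of 15882 genes were and 9.41% were higher, with a median log2 fold change of -0.75. Mice of these groups did not overlap for those 3 members, against 33.8% of all genes. In 5/6 Nx-LPi-Lp the same 3 were called lower, where 2.08% of 16071 genes were, with Mylk at -1.09 (SE 0.26, adjusted p = 0.0117), Synpo2 at -1.33 (SE 0.27, adjusted p = 0.00659) and a median of -0.77. Pln was the 1 member called higher there, where 8.79% of genes were. In that comparison 6 members did not overlap, against 35.6% of all genes. Srf passed the adjusted p in both comparisons with a smaller fold, at -0.84 (SE 0.25, adjusted p = 0.0301) and -0.77 (SE 0.15, adjusted p = 0.00529). Against Sham, the 5/6 Nx-HPi-Hp count was 0 to 1 when any library but 5/6 Nx-HPi-Hp mouse 4 was left out, 6 without that mouse, and 0 without the heart-rich mice 1 and 2, which leaves 2 mice. The 5/6 Nx-LPi-Lp count of 4 was 1 (Synpo2) without mouse 2, and 2 without mouse 1 or any 1 Sham mouse.

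In 5/6 Nx-HPi-Hp against 5/6 Nx-LPi-Lp, edgeR called 0 of the 10 regulators and 0.00% of 15850 genes. At an unadjusted p under 0.05 there was 1 member, Pln, against 8.96% of all genes, and DESeq2 called 0 members, with 51 genes lower and 37 higher overall. The members' log2 fold changes ran from -3.26 for Pln to 0.13 for Cnn1, and apart from Pln and Des they lay within -0.51 to 0.13 with standard errors of 0.27 to 0.56. The values of Pln and Des (-0.91) rested on 5/6 Nx-LPi-Lp mouse 2, and without it were 0.70 (adjusted p = 0.759) and -0.14 (adjusted p = 0.891). No member separated the 8 mice without overlap, against 5.15% of all genes.

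Within a group, the regulators tended to share their high and low mice. In 5/6 Nx-HPi-Hp, mouse 4 had the highest level of 9 members and mouse 3 the lowest of 9, and Cnn1 spanned 509 to 2092 CPM between them. Mouse 4 of that group also had the highest smooth muscle sum, 21406 CPM against 6109 CPM in mouse 3, the lowest adipocyte sum, 1041 against 6315 CPM, and the lowest mitochondrial share, 9.50% against 25.03%. In 5/6 Nx-LPi-Lp, mouse 1 was lowest in 9 members and mouse 4 highest in 7, with smooth muscle sums of 7074 and 16505 CPM and adipocyte sums of 6911 and 2494 CPM. In 5/6 Nx-HPi-Lp, mouse 4 was lowest in 8 members, and mice 1 and 3 shared the highest places, 5 each. The part of tissue composition in this spread was not tested.

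To see which regulators kept step with the contractile apparatus, the counts were also scaled to the 7 contractile genes the study displayed (Acta2, Actg2, Lmod1, Myh11, Myl6, Smtn and Tagln). The study chose those genes on these same libraries, so this scaling follows the contrast, and a change here means more or less than the contractile genes. Against Sham, 8 of the 10 regulators were then not called, and Srf (1.04, SE 0.28, adjusted p = 0.00190) and Pln (1.61, SE 0.52, adjusted p = 0.00639) were called higher. On this scale 93.2% of all genes were called higher and 0.242% lower, with a median over all genes of 2.50. Tpm2 (0.09), Myocd (-0.09) and Mylk (-0.17) were nearest to 0, and Synpo2 was the lowest, at -0.78 (SE 0.27, adjusted p = 0.0109), past the adjusted p but short of the fold. Prkg1 also passed the adjusted p but not the fold, at 0.95 (SE 0.39, adjusted p = 0.0268). It was called higher without 5/6 Nx-HPi-Lp mouse 3, at 1.10 (adjusted p = 0.0121), or mouse 4, at 1.08 (adjusted p = 0.0107).

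Per mouse, the log2 level of Srf minus the mean log2 level of the 7 genes was -3.70 ± 0.10 in Sham (SD, n = 4) and -2.69 ± 0.40 in 5/6 Nx-HPi-Lp, with ranges of -3.83 to -3.61 and -3.24 to -2.36. It was -3.88 ± 0.16 in 5/6 Nx-HPi-Hp and -3.75 ± 0.17 in 5/6 Nx-LPi-Lp, so that each 5/6 Nx-HPi-Lp mouse lay above every mouse of the other groups. A rise on this scale was common: 93.2% of all genes were called higher against Sham, 75.0% against 5/6 Nx-HPi-Hp and 79.7% against 5/6 Nx-LPi-Lp. The share of all genes without overlap on this scale was not computed. For Tpm2 the same difference hardly varied within 5/6 Nx-HPi-Lp, from 0.89 to 0.92. Synpo2 lay lower in every nephrectomized group, from -1.39 ± 0.15 in Sham to -2.17 ± 0.10 in 5/6 Nx-HPi-Lp, -2.27 ± 0.37 in 5/6 Nx-HPi-Hp and -2.07 ± 0.20 in 5/6 Nx-LPi-Lp, with no nephrectomized mouse in the Sham range. Prkg1 was at -6.97 ± 0.12 in Sham, -6.09 ± 0.52 in 5/6 Nx-HPi-Lp, -7.86 ± 0.72 in 5/6 Nx-HPi-Hp and -7.48 ± 0.53 in 5/6 Nx-LPi-Lp.

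On this scale, against 5/6 Nx-HPi-Hp, Srf (1.22, SE 0.46, adjusted p = 0.0157) and Prkg1 (1.72, SE 0.66, adjusted p = 0.0190) were called higher, where 75.0% of all genes were and 0.185% were lower. Against 5/6 Nx-LPi-Lp, Srf (1.08, SE 0.36, adjusted p = 0.0101) and Prkg1 (1.40, SE 0.54, adjusted p = 0.0214) were called higher, where 79.7% of genes were, and Pln was called lower (-3.54, SE 1.04, adjusted p = 0.00449), where 0.375% were. Without 5/6 Nx-LPi-Lp mouse 2 the count there was 1, and the Pln call turned to 0.54 (adjusted p = 0.469). Srf against Sham was 0.93 (adjusted p = 0.00584) without 5/6 Nx-HPi-Lp mouse 2 and 0.97 (adjusted p = 0.00464) without its mouse 4, just under the fold threshold. Pln against Sham was 0.94 (adjusted p = 0.0724) without 5/6 Nx-HPi-Lp mouse 3, no longer called. On this scale the count against 5/6 Nx-HPi-Hp was 1 without 5/6 Nx-HPi-Lp mouse 1 or 2 and 0 without 5/6 Nx-HPi-Hp mouse 2. Scaled to Myh11 and Lmod1 alone, Srf, Pln, Des, Ldb3 and Prkg1 were called higher against Sham.

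**Figure D4:**
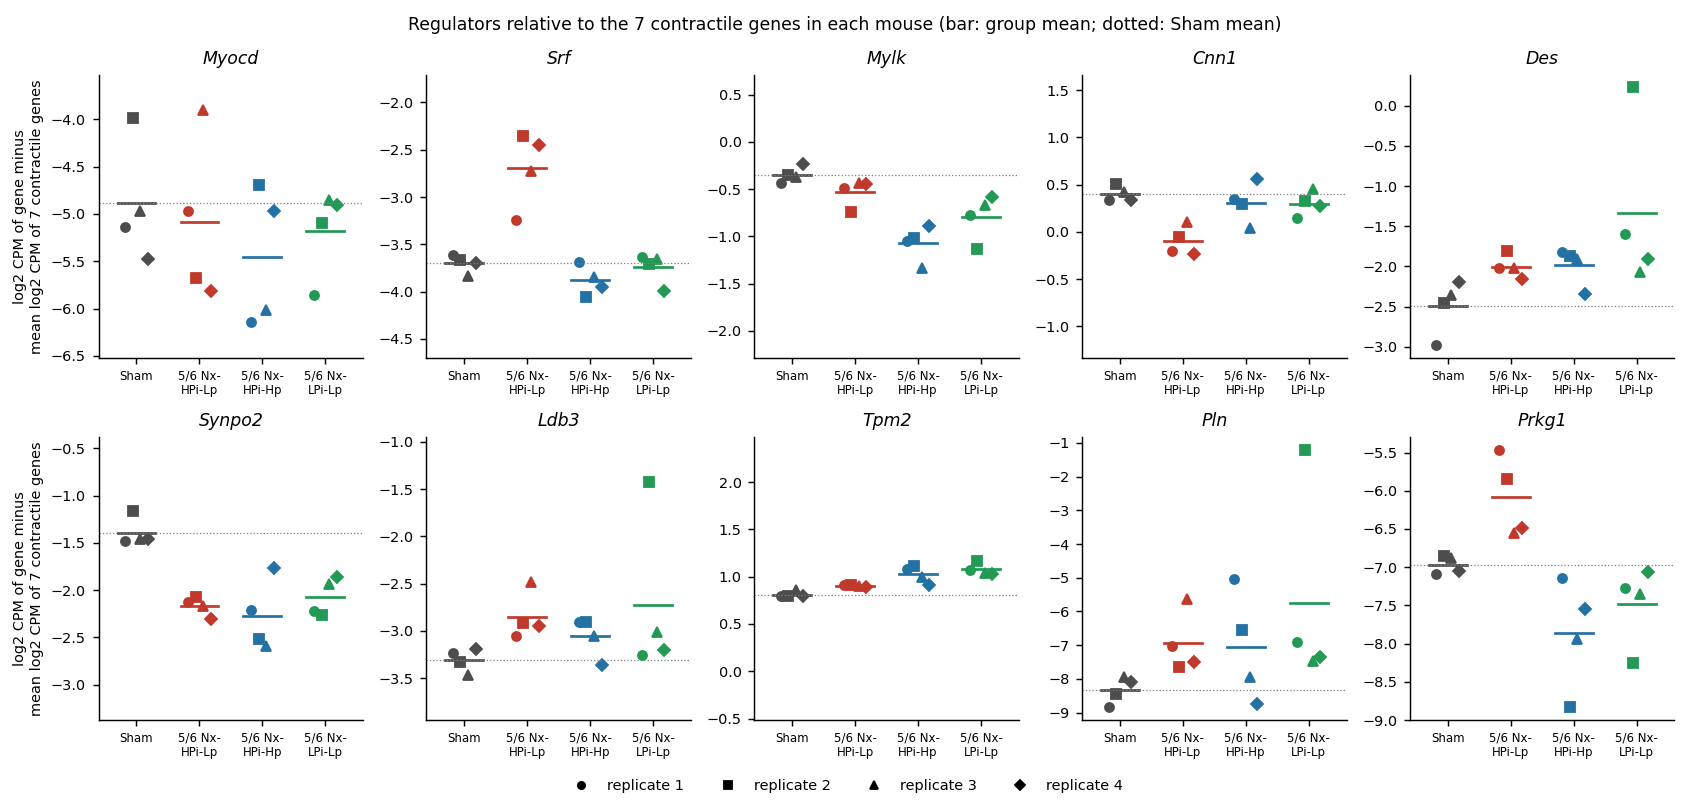
Log2 CPM of each regulator minus the mean log2 CPM of the 7 contractile genes (vertical axes) in each of the 16 mice by group, with 1 symbol per mouse, a bar at the group mean and a dotted line at the Sham mean. The 5/6 Nx-HPi-Lp mice lie above all others for Srf, between -3.24 and -2.36, and below the Sham mice for Synpo2, between -2.30 and -2.07. With this scaling 93.2% of all genes were called higher in 5/6 Nx-HPi-Lp against Sham.

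Around the 10 regulators, 93 companion genes in 4 lists cover the same machinery, without a member or a contractile gene among them. They were chosen for their roles but with earlier results of these data known, so their counts are a description. Against Sham 91 had enough counts, of which 41 were called lower and 4 higher in 5/6 Nx-HPi-Lp, with a median log2 fold change of -0.85 beside 0.00 over all genes. Of all 16513 genes tested, 7.18% were called lower and 15.0% higher in that comparison. Of 18 transcription regulators, 4 were lower and 1 higher (median -0.03), of 21 genes for light chain kinase and phosphatase control 7 and 0 (-0.56), of 28 thin filament, dense body and intermediate filament genes 19 and 1 (-1.24), and of 24 genes for calcium stores and cGMP signalling 11 and 2 (-0.88).

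Among the transcription regulators, Csrp2, a LIM protein that bridges serum response factor and GATA factors, fell in 5/6 Nx-HPi-Lp against Sham by a log2 fold change of -1.77 (SE 0.21, adjusted p = 0.000188), with 419, 265, 482 and 255 CPM against 1203, 1191, 1295 and 1328 CPM in mice 1 to 4. Elk3, an Ets factor that forms complexes with serum response factor, was called higher against all 3 groups, by 1.01 (SE 0.24, adjusted p = 0.00833) against Sham, 1.09 (SE 0.25, adjusted p = 0.0232) against 5/6 Nx-HPi-Hp and 1.28 (SE 0.25, adjusted p = 0.00977) against 5/6 Nx-LPi-Lp. Its levels in 5/6 Nx-HPi-Lp were 38.2, 99.2, 62.4 and 73.5 CPM, of which mouse 1 lay within the Sham range of 31.1 to 42.1 CPM.

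In the kinase and phosphatase list, Myl9, the regulatory light chain that Mylk phosphorylates, fell from 5015 ± 115 CPM in Sham to 726 ± 232 CPM (SD, n = 4), a log2 fold change of -2.73 (SE 0.23, adjusted p = 4.00e-05). Ppp1r14a, an inhibitor of myosin phosphatase, fell (log2 fold change -2.85, SE 0.26, adjusted p = 5.45e-05). Both were called lower against the other 2 groups as well, Myl9 with -2.31 (SE 0.38, adjusted p = 0.00696) and -2.33 (SE 0.29, adjusted p = 0.00191) and Ppp1r14a with -2.45 (SE 0.34, adjusted p = 0.00409) and -2.12 (SE 0.29, adjusted p = 0.00263), the first against 5/6 Nx-HPi-Hp, the other against 5/6 Nx-LPi-Lp. Dapk3, a light chain kinase, passed the adjusted p against Sham but not the fold, at 0.51 (SE 0.14, adjusted p = 0.0131).

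Of the filament and dense body genes, Itga8, an integrin of smooth muscle, changed most, from 2022, 2336, 2524 and 2078 CPM in Sham mice 1 to 4 to 218, 142, 321 and 109 CPM in 5/6 Nx-HPi-Lp, a log2 fold change of -3.45 (SE 0.32, adjusted p = 5.46e-05). Flna, the actin crosslinker filamin A, fell (log2 fold change -1.64, SE 0.27, adjusted p = 0.000996), as did Vim, vimentin (-1.18, SE 0.13, adjusted p = 0.000119). Vim was not called against 5/6 Nx-HPi-Hp or 5/6 Nx-LPi-Lp, at -0.21 (SE 0.30, adjusted p = 0.673) and -0.39 (SE 0.21, adjusted p = 0.216). Tpm3, a tropomyosin of many cell types, was called higher by 1.11 (SE 0.19, adjusted p = 0.00144) against Sham and 1.11 (SE 0.21, adjusted p = 0.00869) against 5/6 Nx-LPi-Lp, and had 0.72 (SE 0.22, adjusted p = 0.0529) against 5/6 Nx-HPi-Hp.

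Of the calcium and cGMP genes, Atp2a2, the pump that phospholamban inhibits, fell against Sham (log2 fold change -1.57, SE 0.16, adjusted p = 9.08e-05), and its level of 1833 CPM in 5/6 Nx-LPi-Lp mouse 2 again stood apart from 323 to 495 CPM in the other 3 mice. Gucy1b1, a subunit of the soluble guanylate cyclase that makes cGMP for Prkg1, fell (log2 fold change -2.51, SE 0.31, adjusted p = 0.000233), from 181, 216, 202 and 217 CPM to 52.4, 16.1, 42.02 and 27.9 CPM. Gucy1b1 was not called against 5/6 Nx-HPi-Hp (-0.82, SE 0.46, adjusted p = 0.255) or 5/6 Nx-LPi-Lp (-1.15, SE 0.37, adjusted p = 0.0553). Prkg1, also not called there, had values nearer to none, 0.04 and -0.21. Npr1, a receptor that makes cGMP, had -0.83 (SE 0.22, adjusted p = 0.0120) against Sham, past the adjusted p but short of the fold. Itpr2, a calcium release channel, was called higher than in Sham, by 1.21 (SE 0.17, adjusted p = 0.000423), and so was the cation channel Trpc6, by 3.46 (SE 0.85, adjusted p = 0.00903). Mean Itpr2 was 53.1 CPM in 5/6 Nx-HPi-Lp, 62.7 CPM in 5/6 Nx-HPi-Hp, 58.8 CPM in 5/6 Nx-LPi-Lp and 23.9 CPM in Sham. Trpc6 was barely measured, at 0.116, 0.131, 0 and 0.316 CPM in the Sham mice and 0.946, 3.49, 0.707 and 1.03 CPM in 5/6 Nx-HPi-Lp, and a fitted fold against so few counts depends on the tool's prior.

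In the comparison with 5/6 Nx-HPi-Hp, 13 of 91 companion genes were called lower and 4 higher, and against 5/6 Nx-LPi-Lp 18 and 4 of 92. Of all genes, 3.11% were called lower and 5.01% higher against 5/6 Nx-HPi-Hp, and 3.98% and 7.90% against 5/6 Nx-LPi-Lp. Counts against 5/6 Nx-HPi-Hp fell to 7 in all without 5/6 Nx-HPi-Lp mouse 2, 9 without its mouse 4, 10 without 5/6 Nx-HPi-Hp mouse 2, 10 without the neuron-rich mice and 0 without the heart-rich mice. Against 5/6 Nx-LPi-Lp they fell to 11 and 9 without 5/6 Nx-HPi-Lp mouse 2 or 4, 12 without 5/6 Nx-LPi-Lp mouse 3 or 4 and 12 without the neuron-rich mice.

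**Figure D5:**
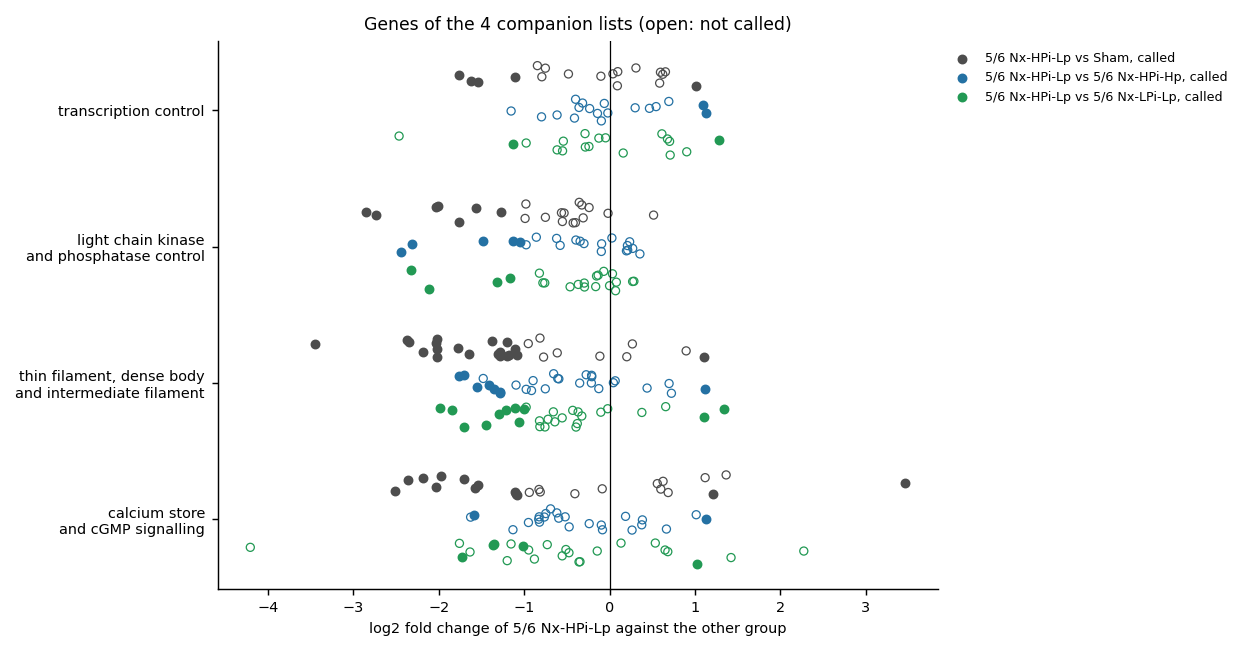
Log2 fold change (horizontal axis) of each companion gene in 5/6 Nx-HPi-Lp against Sham (grey), 5/6 Nx-HPi-Hp (blue) and 5/6 Nx-LPi-Lp (green), by list, filled where called by edgeR. The filament and dense body list holds 19 filled points below 0 against Sham, and the transcription list 4.

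The genes whose levels over the 16 libraries were most like those of Myocd, Srf and Prkg1 were listed, by Pearson's r of log2(CPM + 1) among 17443 genes, as a description over libraries that share group differences and composition. Among the nearest to Myocd were Filip1l (r = 0.939), Dusp8 (0.932), Pdlim3 (0.928) and Tiam2 (0.927), with Mylk the nearest member (0.905). Nearest to Srf were Adgrl2 (0.985), Cpe (0.985), Npnt (0.984), Pls3 (0.983) and Pde3a (0.983), with Synpo2 (0.966) and Mylk (0.958) the nearest members. Nearest to Prkg1 were Dnal1 (0.952), Epc2 (0.941), Foxk1 (0.935), 4932438A13Rik (0.935) and Capn2 (0.934), and its nearest member was Srf (0.818). Pln resembled none of the 3, with r of 0.219, 0.108 and -0.159.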

How the data were processed

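Poly-A RNA of 16 mouse aortas was sequenced. The authors mapped the reads to mm10 with HISAT2, and the deposited counts per gene came from featureCounts 1.5.0-p3, with counting options not given in the sources used here. The deposited FPKM divide those counts by gene length and a library factor. Totals ran from 13659525 to 57276915 counts. In R 4.3.3, each comparison of 4 libraries with 4 was fitted with edgeR 4.0.16 (quasi-likelihood test, filterByExpr, TMM, Benjamini-Hochberg adjustment over all genes tested). The p-values measure the spread between mice. The threshold for a call was an adjusted p of 0.05 together with a 1 log2 change in size. Alternatives were other scalings and filters, DESeq2 1.42.0, limma 3.58.1 on log2(FPKM + 1), all 16 libraries in 1 fit, a replicate block, no fold threshold and each library left out. Members, lists and tests were chosen with earlier results of these data known, and leaving out libraries rich in heart or neuron genes was chosen after seeing the data. Companion genes were named where most abundant in their list, at either end of its fold changes, or called higher than in Sham. A few genes that these rules name are not reported here. On counts simulated for 5/6 Nx-HPi-Lp against Sham, edgeR recovered 70.1% of 97 genes changed by 1.5 and 75.0% of 96 changed by 2 (log2). It made 7 false calls among 16192 genes. On the same simulated counts DESeq2 recovered 80.4% and 84.4% and made 35 false calls. Only that comparison was simulated, with far fewer changed genes than were called in the data.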

Additional observations from a re-analysis of the deposited data

Results flagged for a closer look

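Of 40 combinations of gene and group tested with Dixon's ratio, which divides the gap of the most extreme of 4 mice by the range of its group, 3 passed the 95% critical value, and chance alone gives about 1 in 20. Pln in 5/6 Nx-LPi-Lp mouse 2 had a ratio of 0.992, with 309.7 CPM against 4.44 to 6.76 CPM in the other mice of its group. Cnn1 in Sham mouse 2 had a ratio of 0.876, at 1988 CPM against 1717 to 1751 CPM. Synpo2 in the same mouse had a ratio of 0.873, at 626 CPM against 476 to 495 CPM.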

How the results depend on the processing

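The 9 calls against Sham in 5/6 Nx-HPi-Lp ranged from 8 to 10 over 19 alternatives, and the 6 against 5/6 Nx-LPi-Lp from 3 to 7 over 20. As each library was left out, the counts of regulators ran from 9 to 10 for 5/6 Nx-HPi-Lp against Sham, 1 to 5 against 5/6 Nx-HPi-Hp and 4 to 7 against 5/6 Nx-LPi-Lp, and from 0 to 6 for 5/6 Nx-HPi-Hp and 1 to 4 for 5/6 Nx-LPi-Lp against Sham. The same range was 42 to 50, 7 to 22 and 9 to 24 for companion genes, and 1 to 2, 0 to 2 and 1 to 4 for regulators relative to the contractile genes. Without the heart-rich libraries the counts were 0 against 5/6 Nx-HPi-Hp (companions 0), 0 for 5/6 Nx-HPi-Hp and 1 for 5/6 Nx-LPi-Lp against Sham. Without the neuron-rich libraries they were 1 against 5/6 Nx-HPi-Hp and 3 against 5/6 Nx-LPi-Lp (companions 10 and 12). Limma gave 2 for 5/6 Nx-LPi-Lp against Sham, no fold threshold 72 companions against Sham and 37 against 5/6 Nx-LPi-Lp, and scaling to Myh11 and Lmod1 5 regulators. Relative to the contractile genes, Pln against 5/6 Nx-LPi-Lp reversed to 0.54 without 5/6 Nx-LPi-Lp mouse 2, with values down to -4.22 as other libraries were left out. Where no library or threshold was left out, the cause was not tested.

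Nothing in the labels pairs the mice, and deviations of mice with the same number correlated between -0.276 and 0.536. With the replicate number as a block, edgeR called 9 regulators against Sham, 0 against 5/6 Nx-HPi-Hp and 4 against 5/6 Nx-LPi-Lp, 3 for 5/6 Nx-HPi-Hp and 3 for 5/6 Nx-LPi-Lp against Sham, 2 companions against 5/6 Nx-HPi-Hp, 11 against 5/6 Nx-LPi-Lp, and 0 regulators relative to the contractile genes in both of those comparisons.

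Scaling by total counts moved the median of all genes by -0.139 for 5/6 Nx-HPi-Lp, -0.208 for 5/6 Nx-HPi-Hp and -0.242 for 5/6 Nx-LPi-Lp against Sham (log2), and gave, in that order, 1540 genes lower and 2225 higher, 892 and 972, and 842 and 1048, beside 1186 and 2480, 437 and 1495, and 335 and 1413 with TMM. DESeq2 called 768 genes lower and 1161 higher for 5/6 Nx-HPi-Lp against 5/6 Nx-HPi-Hp, beside 504 and 811 by edgeR, and 51 lower and 37 higher for 5/6 Nx-HPi-Hp against 5/6 Nx-LPi-Lp, where edgeR called 0.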
